A study of Mus musculus with 24 samples.

Results

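The cytosolic ribosomal protein genes encode the structural proteins of the large (60S) and small (40S) ribosomal subunits that translate messenger RNA in the cytoplasm. The genes described here were those whose symbol is Rpl or Rps with a number and at most the letter a, l or x, together with Rplp0, Rplp1, Rplp2 and Rpsa. Ribosomal S6 kinases, pseudogene symbols and mitochondrial ribosomal proteins were left out. Of 19057 genes with a probe, 59 met that description, 35 of the large and 24 of the small subunit. Each was read from its brightest probe. A probe was called detected on an array at a detection p under 0.05, and genes detected on at least 3 of the 24 arrays were tested: 55 ribosomal protein genes (32 large, 23 small) among 12678 genes. Rpl17, Rpl6, Rps20 and Rpl39l did not pass, with detection on 0 to 2 arrays. Rpl5, Rpl11, Rps27a and Fau were not analysed here.

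Ribosomal proteins are made in matched amounts and assembled on ribosomal RNA in the nucleolus. In vertebrates their messenger RNAs mostly begin with a C followed by a run of pyrimidines, the 5′ terminal oligopyrimidine (TOP) tract, through which growth signals by way of mTOR set how much of each message is translated. Neural crest and craniofacial tissue are among the sites sensitive to faulty ribosome production: loss of Tcof1, a factor of ribosomal RNA synthesis, gives facial defects in mice and humans, and unassembled ribosomal proteins can stabilise p53, a relative of p63.

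RNA was measured in the mandibular prominence, the part of the first pharyngeal arch that forms the lower jaw, on 24 single-colour Illumina bead arrays, 1 per embryo. The embryos came from the B6.129S7-Trp63tm2Brd/J strain, were homozygous (p63-/-) or heterozygous (p63+/-) for its Trp63tm2Brd allele, and were taken at E10, E11, E12 or E13 (embryonic days), which gave 8 groups of 3 unpooled embryos. Within a group the embryos came from different litters. The comparison group was heterozygous, so no value below is a comparison with wild type, although the series title names it. The prominence is whole tissue, so fewer cells of a type and less RNA per cell cannot be told apart.

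Trp63, the gene carrying the allele, had normalized log2 intensities of 10.19 to 11.32 in p63+/- and 8.97 to 9.89 in p63-/- embryos, with no overlap. Of 11 mandibular mesenchyme markers, 10 had a probe and all of these passed the filter. Arrays detected 43.4% to 48.98% of their probes. The E10 p63-/- replicate 3 array stood apart: Afp, a yolk sac endoderm marker, was at 13.77 there, at 8.33 and 4.97 on the other E10 p63-/- arrays and at most 6.00 in E10 p63+/-. The mean of the 10 yolk sac endoderm markers tested was 6.02 to 13.55 in that group. Each slide appeared to hold 1 stage, so stage and slide cannot be told apart, whereas the genotypes appeared to be compared within slides. Precision is limited by there being 3 arrays in each group.

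The sequences around the annotated transcript starts of 8 of these genes are shown because TOP tracts are the feature ribosomal protein messages are known for, and because the genes include those whose normalized level moved with stage and those with small ranges. They are RefSeq sequences of build GRCm38.p6, 5′ to 3′ on the coding strand, from 30 bases before the annotated start to 20 bases from it on. Capitals mark the longest unbroken run of C and T where it has at least 5 bases. The first 4 fell from E10 to E13, the next 2 rose and the last 2 had the smallest ranges with a sequence here.
Rps27l, chr9:66946056-66946105, plus strand: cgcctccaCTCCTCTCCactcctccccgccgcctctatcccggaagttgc
Rpl4, chr9:64173357-64173406, plus strand: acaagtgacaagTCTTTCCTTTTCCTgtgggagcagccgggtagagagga
Rpl13a, chr7:45128726-45128775, minus strand: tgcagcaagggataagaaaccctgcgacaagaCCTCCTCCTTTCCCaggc
Rps3, chr7:99483690-99483739, minus strand: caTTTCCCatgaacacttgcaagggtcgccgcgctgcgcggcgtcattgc
Rpl22, chr4:152325696-152325745, plus strand: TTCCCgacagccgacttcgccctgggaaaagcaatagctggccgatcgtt
Rpl23, chr11:97782420-97782469, minus strand: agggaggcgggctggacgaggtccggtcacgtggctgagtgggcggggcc
Rps9, chr7:3704011-3704060, plus strand: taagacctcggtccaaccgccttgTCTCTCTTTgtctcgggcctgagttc
Rpl38, chr11:114668550-114668599, plus strand: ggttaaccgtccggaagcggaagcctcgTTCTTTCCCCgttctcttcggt
Rps27l, Rpl4, Rpl13a, Rps9 and Rpl38 have runs of 9, 14, 14, 9 and 10 pyrimidines, whereas Rpl23 has none of 5 in this window. The windows of Rps23, Rpsa and Rpl37, not printed, had longest runs of 6, 5 and 6, so 5 of 11 windows held at least 8. The Rps9 and Rpl38 runs span the annotated start, and that of Rpl13a lies just after it. The marked runs of Rps27l, Rpl4, Rps3 and Rpl22 lie before the start, outside the transcript annotated from there. RefSeq lists 2 starts for Rps27l and 2 for Rpl22, and only the window at the first listed is shown. Of the 59 genes, 48 matched a RefSeq start, some with several, and 24 of these (50.0%) held a run of at least 8 pyrimidines in the window of 50 bases at any listed start. The share was 22.9% over all 27025 genes with a start. Runs anywhere in the window were counted, also before the start, so these are not shares of TOP tracts. The letters CTTCCG, the core bound by ETS factors such as GABPA, were searched on both strands from 250 bases before to 50 bases after the start. They occurred at 34 of the 48 genes (70.8%), against 18.8% of all genes, and can overlap the pyrimidine run. AAGATGGC, a YY1 motif, occurred on either strand at 3 of the 48 (6.25%) and at 3.19% of all genes. Annotated starts can be off by several bases, and a match describes these letters only.

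Most ribosomal protein messages were among the strongest signals on the arrays. Of the 59 genes, 19 had a probe among the 100 brightest and 45 among the 1000 brightest. Rps12, of the 40S subunit, ranked 4 with a mean intensity of 53806, followed among these genes by Rplp1 (52611), Rps2 (52057), Rpl41 (50878) and Rps29 (50377). Intensities of different probes reflect the probe as well as the message, so their order is not an order of abundance. The highest intensity of any probe was 66186 and the highest of a ribosomal protein gene was 64143. Whether the scanner compresses differences so close to its upper end was not tested. On the normalized log2 scale 38 genes had a mean of at least 14, 21 of the large and 17 of the small subunit, and 6 had a mean under 10. These 6 dim readings were Rps15a (9.53), Rpl21 (8.72), Rpl14 (6.89), Rpsa (5.98), Rps23 (5.41) and Rpl3l (5.22).

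**Figure D1:**
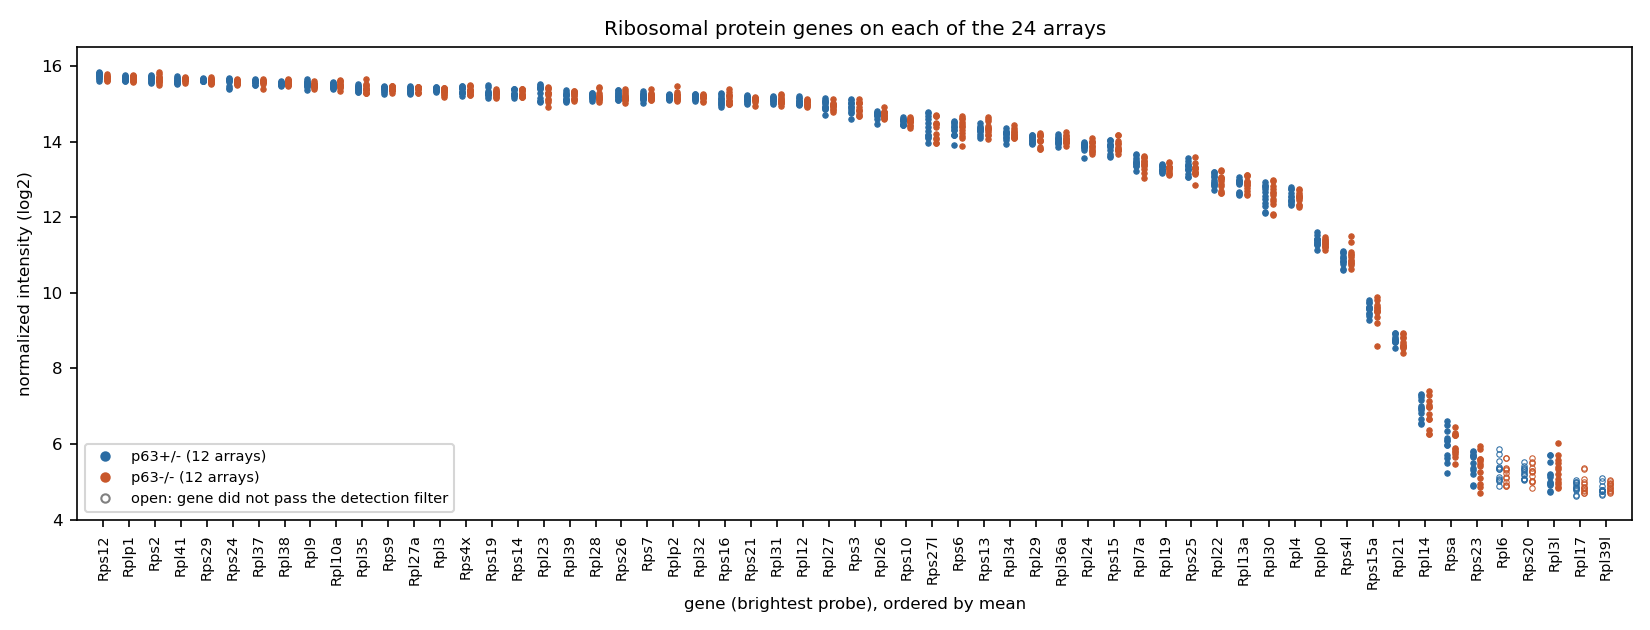
Normalized log2 intensity (y axis) of the 59 ribosomal protein genes (x axis, ordered by mean) on every array, blue for p63+/- and orange for p63-/-, with open points for the 4 genes that did not pass the detection filter. Most genes lie above 12 with points that nearly coincide across the 24 arrays, and the 6 dim genes spread more.

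On the quantile-normalized scale most genes had small ranges over stages. The range of a gene's 8 group means had a median of 0.19 on the log2 scale over the 55 genes, against 0.66 over all genes tested. With each array scaled by its median in place of quantile normalization these medians were 0.54 and 0.72, and in the authors' processed values 0.22 and 0.33. On the quantile-normalized scale the range was under 0.3 for 39 genes and over 0.3 for 16. The SD within a group had a median of 0.068 for these genes and 0.153 for all genes. The narrowest ranges belonged to Rps9 (0.06), Rps29 (0.07) and Rpl38 (0.08). The widest belonged to the dim probes of Rpsa (0.89), Rps23 (0.81), Rpl3l (0.78) and Rpl14 (0.75), followed by Rps27l (0.70), the only bright gene among the 5 widest.

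The first question was whether losing the remaining p63 allele changed ribosomal protein messages in the prominence. None of the 55 genes differed between p63-/- and p63+/- embryos at E10, E11, E12 or E13 (limma, Benjamini-Hochberg adjusted over all 12678 genes, threshold 0.05). On the average over stages 0 of 55 passed, where 2.36% of all genes passed (299 genes). At single stages 0.805% of all genes passed at E10, 0.513% at E11, 0.3% at E12 and 0.308% at E13. No ribosomal protein gene passed the interaction of genotype with stage, which 2 genes passed in all (0.0158%). At an unadjusted p under 0.05 the counts were 1 at E10 and 0 at the other stages, on the average and for the interaction. The share of all genes at that unadjusted threshold is not given here, so these counts have no background beside them.

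The intervals give the differences on the normalized scale that the scatter between arrays allows. They do not cover compression of bright signals, which was not tested. Averaged over stages, the p63-/- minus p63+/- differences ran from -0.12 for Rpl14 to 0.15 for Rpl3l, both dim, with a median of -0.01. For the 38 bright genes the 95% intervals, not adjusted for the number of genes, all lay between -0.17 and 0.17, that is within 1.12-fold. For all 55 they lay between -0.34 and 0.36, within 1.28-fold. At a single stage they were wider: those of the bright genes reached 0.36 at E10, 0.37 at E11, -0.28 at E12 and 0.29 at E13. Quantile normalization was used, which gives every array the same distribution of values, so a shift shared by the brightest probes of an array could not be seen by it. With each array scaled by its median in its place, the median of the 55 genotype differences was -0.03, that of all genes -0.04, and 0 of 55 passed.

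**Figure D2:**
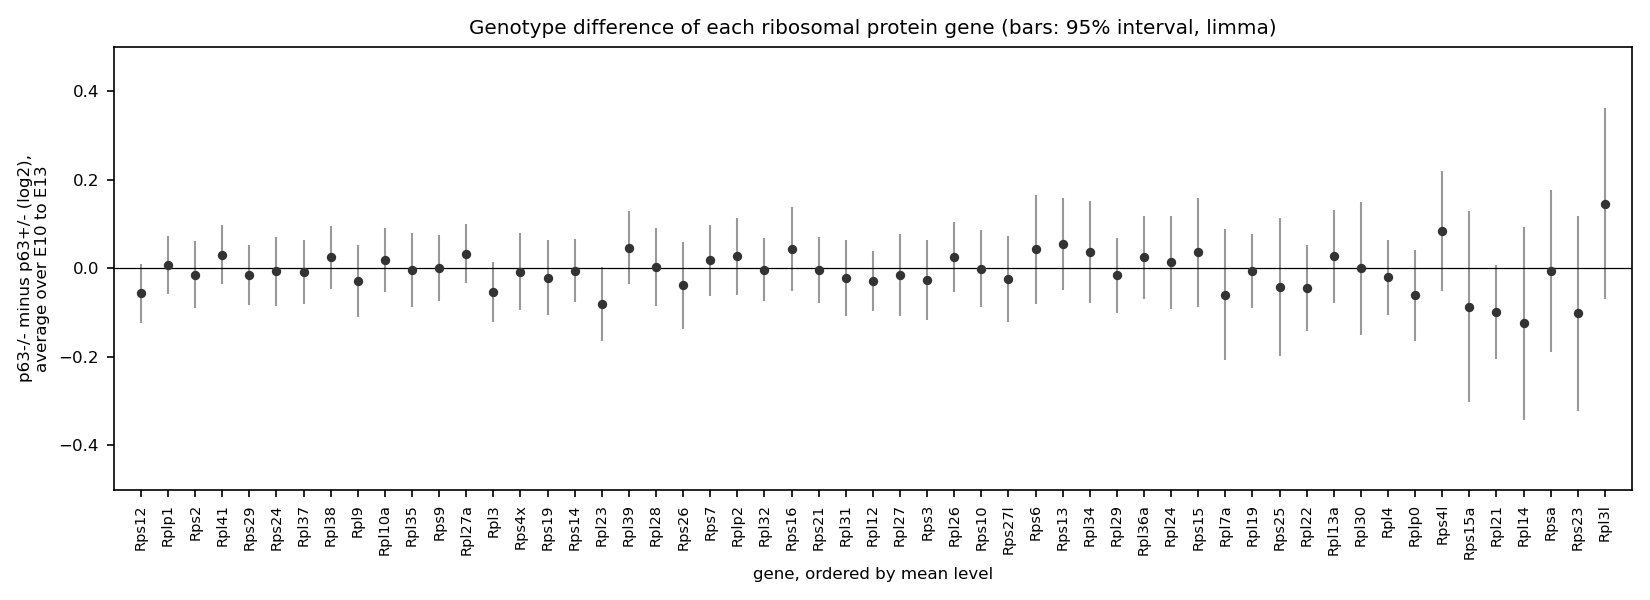
Difference between p63-/- and p63+/- averaged over the 4 stages (y axis, log2) for each of the 55 genes tested (x axis, ordered by mean level), with bars for the 95% interval from limma. Points lie between -0.12 and 0.15, and the intervals of the bright genes on the left stay within -0.17 to 0.17.

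Rplp0, with Rplp1 and Rplp2, builds the stalk of the 60S subunit that recruits translation factors. Its values in p63+/- embryos at E10 were 11.40, 11.61 and 11.43, and those in p63-/- embryos were 11.14, 11.25 and 11.30. The groups did not overlap at that stage, with a difference of -0.25 (SE 0.099), yet the adjusted p of 0.25 missed the threshold. At the later stages they overlapped, and the average over stages was -0.06 (SE 0.049). Rplp1 and Rplp2 differed by 0.01 (SE 0.031) and 0.03 (SE 0.042) on average, with adjusted p of 0.973 and 0.897 in limma.

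Rpl23, which like Rpl5 and Rpl11 can bind the p53 ligase Mdm2, had the smallest adjusted p on the average over stages (difference -0.08, SE 0.040, limma adjusted p 0.527). Rpl21 followed with -0.10 (SE 0.051, adjusted p 0.543). In mice, mutations of Rpl38 alter the pattern of the axial skeleton, those of Rpl24 cause the belly spot and tail phenotype, and those of Rps19 and Rps7 affect pigment, blood or growth. Their average genotype differences were 0.02 (SE 0.034), 0.01 (SE 0.050), -0.02 (SE 0.041) and 0.02 (SE 0.038), in that order, and none passed. Rps6, the S6 kinase substrate of the 40S subunit, differed by 0.04 (SE 0.059) and Rpsa, the 40S protein also known as the laminin receptor, by -0.01 (SE 0.087). Of 19 Diamond-Blackfan anaemia genes, mutated in a human disorder of red cell production that can include facial anomalies, 11 were measured here. Their differences had a median of -0.02 and 0 passed, where 2.36% of all genes did.

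The paralogs that the rule takes in were also close between genotypes. Rps27l, a p53-inducible copy of Rps27, differed by -0.02 (SE 0.046) on average. Rps4l, annotated in RefSeq as a transcribed pseudogene, differed by 0.08 (SE 0.065), and whether its probe also reads its near-copy Rps4x was not tested. Rpl3l, the striated muscle copy of Rpl3, was detected on 6 of 24 arrays and differed by 0.15 (SE 0.103). No paralog passed.

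Between E10 and E13 a minority of the ribosomal protein genes changed on the quantile-normalized scale. Rps27l, Rpl30, Rpl4, Rpl13a, Rps3 and the dim Rps23 and Rpsa fell in both genotypes, and Rpl23 and Rpl22 rose. In p63+/- embryos 9 of 55 passed (7 lower, 2 higher, 16.4%), where 53.4% of all genes did (28% lower, 25.4% higher). In p63-/- embryos 17 passed (14 lower, 3 higher, 30.9%), where 56% of all genes did (28.5% lower, 27.5% higher). The medians of the 55 differences were -0.00 and -0.03. These splits depend on the scaling. Array-median scaling rests on the median of all probes, most of them undetected, so it also follows the level of undetected probes. With each array scaled by its median, 48 were lower and 0 higher in p63+/- (87.3%, against 55.9% of all genes), and 47 lower and 0 higher in p63-/- (85.5%, against 58.2%). So the members' share lay below that of all genes on the quantile scale and above it on this one. The authors' processed values gave 10 lower and 15 higher in p63+/- (against 52.8% of all genes) and 17 lower and 13 higher in p63-/- (against 55.3%). Among the 38 bright genes 3 and 8 passed (7.89% and 21.1%), while of 138 other genes with a mean of at least 14 the share was 45.7% and 47.8%. With array-median scaling the shares were 97.4% and 94.7% of the 38 and 87% and 86.2% of the 138. The difference between the gene sets was not tested. All 9 genes that passed in p63+/- passed in p63-/- in the same direction. The other 8 passed in p63-/- alone, and no interaction passed, so those genes are not shown to differ between genotypes. The share of all genes that passed in both genotypes is not given here. The overlap is therefore not shown to be particular to ribosomal protein genes.

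**Figure D3:**
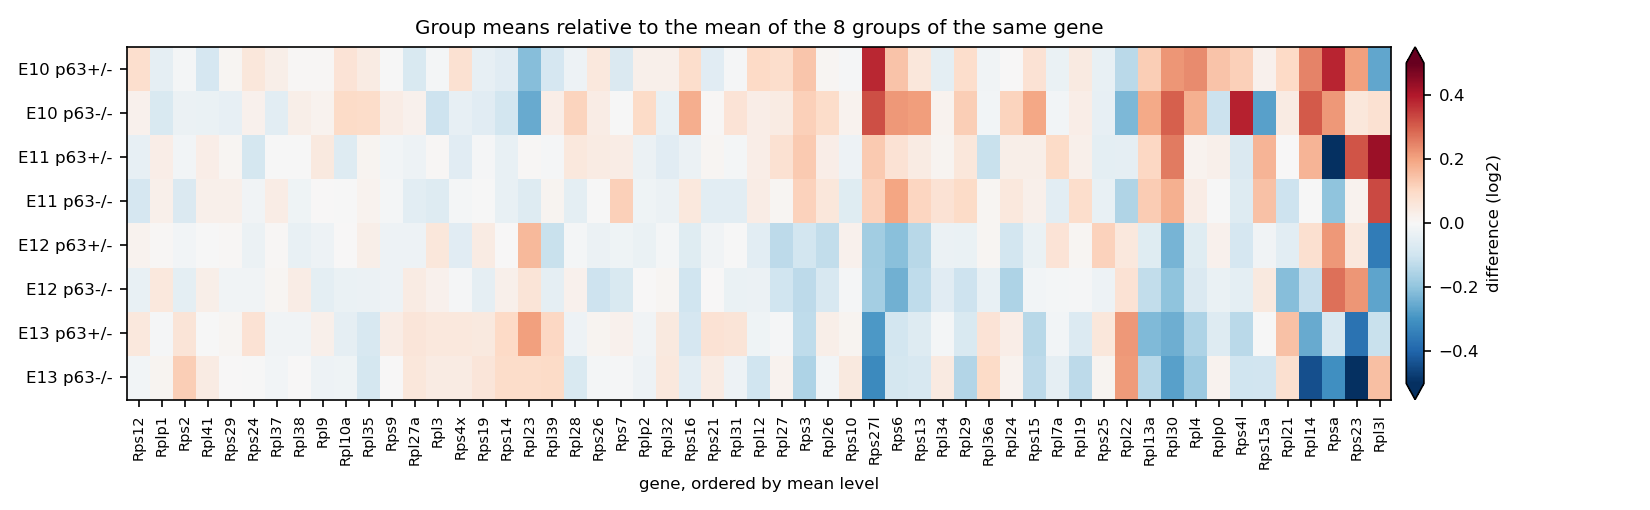
Mean of each of the 8 groups (rows) relative to the gene's mean over the groups, for the 55 genes tested (columns, ordered by mean level); red is higher and blue lower on a log2 scale that ends at 0.5 either way. On this quantile-normalized scale columns on the left are nearly blank, while Rpl23, Rps27l, Rpl22, Rpl30 and the dim genes on the right change colour between E10 and E13, alike in both genotypes.

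Rps27l changed most among the bright genes. Its values in p63+/- embryos were 14.78, 14.76 and 14.67 at E10 and 14.09, 13.96 and 14.16 at E13, and in p63-/- embryos 14.67, 14.70 and 14.68 at E10 and 13.95, 13.97 and 14.19 at E13. Every E13 value lay below every E10 value in both genotypes. The difference was -0.66 (SE 0.093, limma adjusted p 9.92e-06) in p63+/- and -0.64 (adjusted p 1.15e-05) in p63-/-, a fall of 1.58-fold and 1.56-fold. Over both genotypes it fell by 0.23 from E10 to E11 and by 0.29 from E11 to E12 on the log2 scale, and differed by -0.13 from E12 to E13 without passing (adjusted p 0.114). The step from E10 to E11 did not pass without E10 p63+/- replicate 1 or 2, E11 p63-/- replicate 3 or E11 p63+/- replicate 3 (highest adjusted p 0.0688). With array-median scaling its E13 minus E10 difference in p63+/- was -1.13.

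Rpl30, Rpl4 and Rpl13a of the 60S subunit and Rps3 of the 40S subunit also fell in both genotypes. Rpl30 was at 12.67, 12.93 and 12.74 in p63+/- embryos at E10 and at 12.12, 12.37 and 12.47 at E13, without overlap, a difference of -0.46 (SE 0.143) in p63+/- and -0.57 in p63-/-. Rpl4 went from 12.73, 12.80 and 12.74 to 12.44, 12.33 and 12.35 in p63+/- embryos, again without overlap (-0.39, SE 0.081, and -0.36 in p63-/-). Rpl13a, which lies in a complex that silences inflammatory messages when released from the ribosome, differed by -0.34 and -0.33. Rps3, at the messenger RNA entry of the 40S subunit, differed by -0.27 (SE 0.086) and -0.27. The limma adjusted p of these 4 genes lay between 0.00052 and 0.0136 across both genotypes. For Rpl30 in p63+/- the call did not survive the loss of E10 replicate 2 or of E13 replicate 1 of that genotype, with a highest adjusted p of 0.0651. The same omissions ended the call of Rps3 in p63+/- (highest adjusted p 0.101). In p63-/- those of Rpl13a (0.0504) and Rps3 (0.0534) ended without E13 p63-/- replicate 1.

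Rpl23 and Rpl22 rose. Rpl23 was at 15.06, 15.06 and 15.04 in p63+/- embryos at E10 and at 15.53, 15.45 and 15.44 at E13, and at 15.09, 14.92 and 15.04 and then 15.44, 15.38 and 15.27 in p63-/- embryos. No E13 value reached down to an E10 value. The differences were 0.42 (SE 0.081, limma adjusted p 0.000262) and 0.34 (adjusted p 0.00133). Rpl22, a 60S protein that lymphocyte development depends on in mice, went from 12.85, 12.72 and 12.89 to 13.19, 13.18 and 13.14 in p63+/- embryos, without overlap, with differences of 0.35 (SE 0.092) and 0.44. Both rises depend on the scaling: with array-median scaling Rpl22 was at -0.0895 in p63+/-, and Rpl23 at 0.02 in p63+/- and -0.15 in p63-/-, none of them past the threshold.

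**Figure D4:**
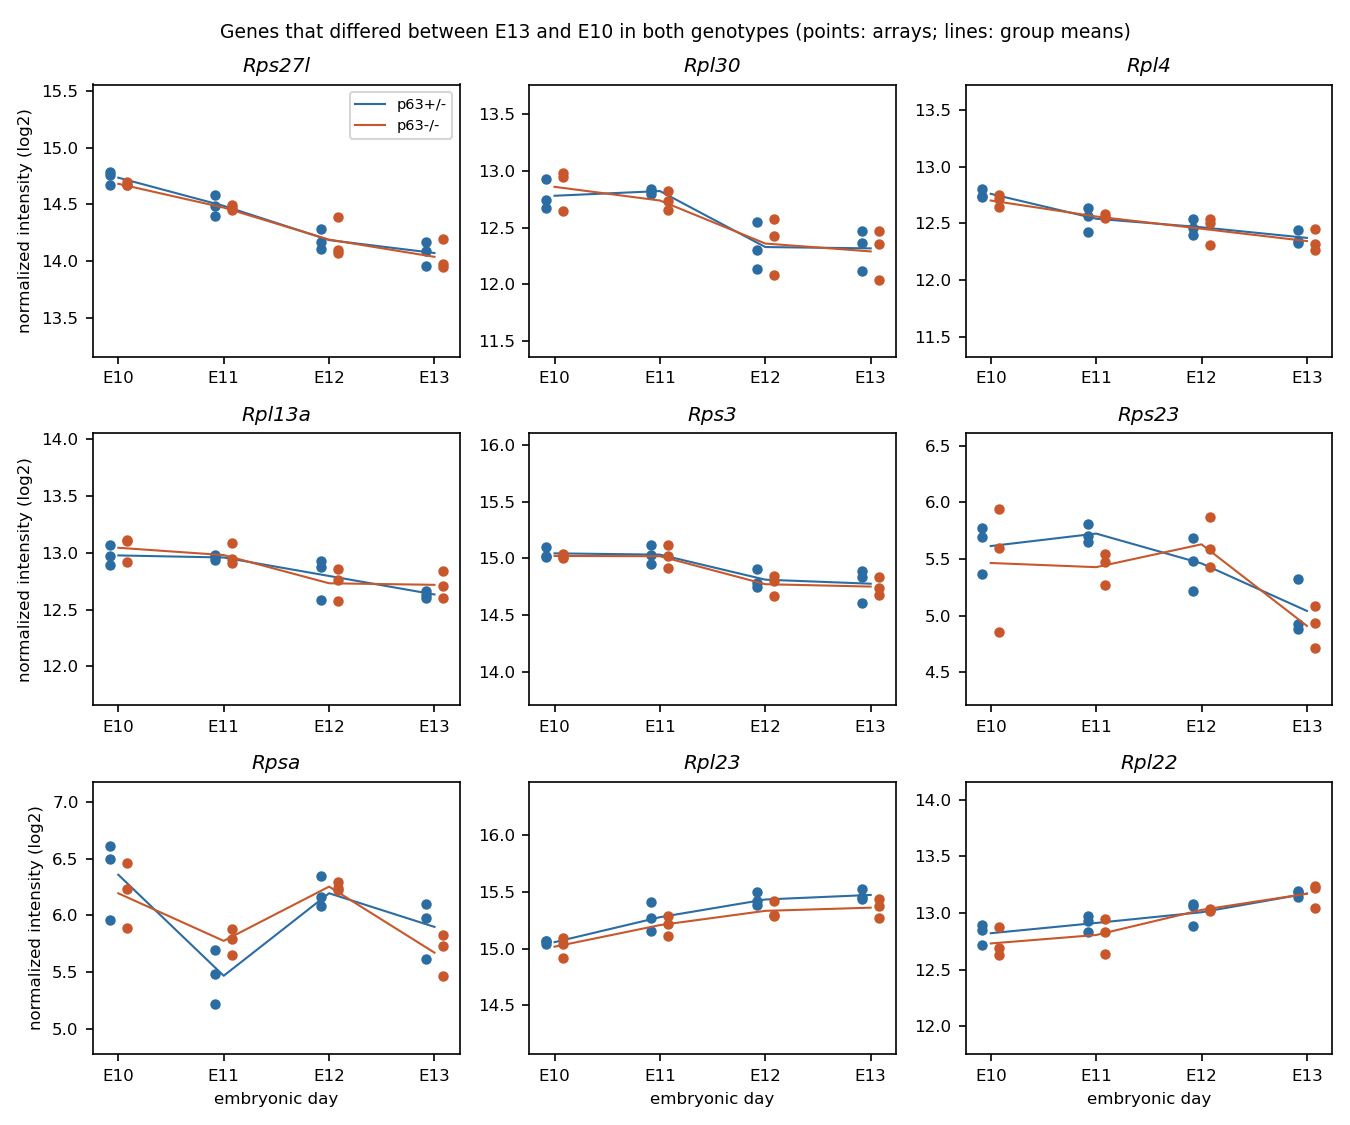
Normalized log2 intensity (y axis) by embryonic day (x axis) of the 9 genes that passed for E13 minus E10 in both genotypes, each point 1 array and each line the group means, blue for p63+/- and orange for p63-/-. Every panel spans the same 2.4 log2 units. The 7 falling and 2 rising genes follow similar courses in both genotypes, and the dim Rps23 and Rpsa scatter most.

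The remaining 2 of the 9 were dim. Rps23, at the decoding centre of the 40S subunit, was detected on 2 and 1 of 3 arrays at E10 and on none at E13. The bound computed for its fall was 1.16-fold in p63+/- and 1.01-fold in p63-/- (limma adjusted p 0.0278 and 0.031). Both E10 means include undetected values, and most E10 p63-/- arrays did not detect Rps23. The bounds are therefore not firm lower limits, least of all in p63-/-. Rpsa fell by 0.46 and 0.52 on the log2 scale (adjusted p 0.0331 and 0.0159) but not steadily: over both genotypes it fell by 0.66 from E10 to E11, rose by 0.60 from E11 to E12 and fell by 0.44 from E12 to E13. Each of these changes appears to lie between slides. The Rps23 call ended without E10 or E13 replicate 1 or 2 in p63+/- (highest adjusted p 0.101), and without E10 replicate 1 or 2 or E13 replicate 2 or 3 in p63-/- (0.213). That of Rpsa ended without E10 replicate 1 or 2 or E13 replicate 1 in p63+/- (0.176), and without E10 replicate 1 or E13 replicate 2 in p63-/- (0.0881). Both calls were also lost in the authors' values. Rpl14, also dim, went from 7.41, 7.13 and 7.04 to 6.26, 6.28 and 6.79 in p63-/- embryos (-0.75, SE 0.208, adjusted p 0.00494), and in p63+/- differed by -0.50 (SE 0.208, adjusted p 0.0506).

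Of the 8 genes that passed in p63-/- alone, Rps4l (-0.48, SE 0.130), Rps15, Rps6, Rps13, Rpl29, Rps16 and Rpl14 were lower and Rps14 was higher (0.18, SE 0.068). Rps6 differed by -0.31 (SE 0.118, limma adjusted p 0.0329) there and by -0.23 (SE 0.118, adjusted p 0.104) in p63+/-. The calls of Rps6, Rps13, Rps14, Rps15 and Rps16 in p63-/- ended without E10 p63-/- replicate 1 or 2 or E13 p63-/- replicate 1. Those of Rps6 and Rps16 also ended without E13 p63-/- replicate 2, and that of Rps14 without replicate 3, with highest adjusted p from 0.0674 for Rps14 to 0.13 for Rps6. With array-median scaling Rps14 was lower, at -0.31. The stalk genes did not pass in either genotype: Rplp0 differed by -0.21 and 0.13, Rplp1 by 0.04 and 0.09, and Rplp2 by -0.05 and -0.12. Rpl38 (-0.02 and -0.03), Rpl24 (0.03 and -0.09), Rps19 (0.09 and 0.12) and Rps7 (0.10 and -0.00) did not pass either. None of the 11 Diamond-Blackfan anaemia genes passed, where 53.4% of all genes did in p63+/- and 56% in p63-/-. These results are for the quantile-normalized scale only. With array-median scaling Rps19 was at -0.34 and -0.39. Of the small subunit 4 of 23 fell in p63+/- and 9 in p63-/-, and of the large subunit 3 of 32 and 5, where 28% and 28.5% of all genes fell. With array-median scaling 21 and 20 of the 23 fell, and 27 of the 32 in each genotype, where 33.7% and 34.6% of all genes fell.

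By step and with both genotypes together, 6 of 55 passed from E10 to E11 (4 lower, 2 higher), where 16.1% of all genes passed (6.57% lower, 9.55% higher). From E11 to E12 9 passed (8 lower, 1 higher, against 35.2% of all genes, 18.1% lower and 17.1% higher), and from E12 to E13 4 (2 lower, 2 higher, against 39.7%, 20.7% lower and 19% higher). From E11 to E12 the lower genes included Rpl30 (-0.44, SE 0.101), Rps6 (-0.36, SE 0.083) and Rps3 (-0.23, SE 0.061). From E12 to E13 Rpl21 (0.25, SE 0.072) and Rpl39 (0.18, SE 0.056) were higher. Both calls were lost with array-median scaling, and that of Rpl21 also with the mean of all its detected probes. The count of 6 from E10 to E11 fell to 3 without E10 p63-/- replicate 3 (16.6% of all genes passed) or E10 p63+/- replicate 1 or 2 (11.2% and 10.4%). It also fell to 3 without E11 p63-/- replicate 1 or 3 (13.5% and 10.6%), and to 1 without E11 p63+/- replicate 3 (9.65%).

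Probes of 1 gene did not always move alike with stage. Of the 55 genes, 19 had over 1 detected probe, which gave 27 probes beside the brightest ones. On E13 minus E10 in p63+/-, 3 of the 19 brightest probes were lower and 1 higher, with a median difference of -0.02, while 12 of the 27 other probes were lower and 0 higher, with a median of -0.24. In p63-/- the brightest gave 5 lower and 1 higher (median -0.03) and the others 11 lower and 0 higher (median -0.37). Over all 24233 detected probes, adjusted together, 50% passed in p63+/- and 52.9% in p63-/-: 29% were lower and 21% higher in p63+/-, and 28.9% lower and 24% higher in p63-/-. The difference between brightest and other probes was not tested. Between genotypes neither kind of probe passed for any of the 19 genes, where 1.65% of all detected probes did.

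The contrast was wide for single genes. The second probe of Rpl38, with a mean intensity of 1661 against 47944 for the first, differed by -1.26 (SE 0.151) in p63+/- and -1.35 in p63-/-. The second probe of Rps19 (intensity 220 against 40051) differed by -1.15 and -1.44, and that of Rpl29 (3973 against 17149) by -1.16 and -1.44. A probe of Rps24 (2386 against 49202) differed by -0.88 and -0.78. The second probe of Rps2, itself at 42092, fell by 0.24 and 0.44 on the log2 scale. The first, at 52057, differed by 0.07 and 0.15 without passing. The second probes of Rps12 (50751) and Rps9 (25392) did not pass in either genotype. The part of probe brightness in these contrasts was not tested. The dimmest probe of Rpl27a (intensity 212) fell by 0.51 and 0.94. For Rpl30, Rpl4 and Rps3 all probes fell in both genotypes. For Rpl23 the rise held for the brightest probe only: a second at 38830 differed by 0.13 and 0.09 without passing, another at 4222 fell by 0.31 in p63+/-, and the dimmest at 175 fell by 0.56 in p63-/-. Which transcripts each probe reads was not tested.

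**Figure D5:**
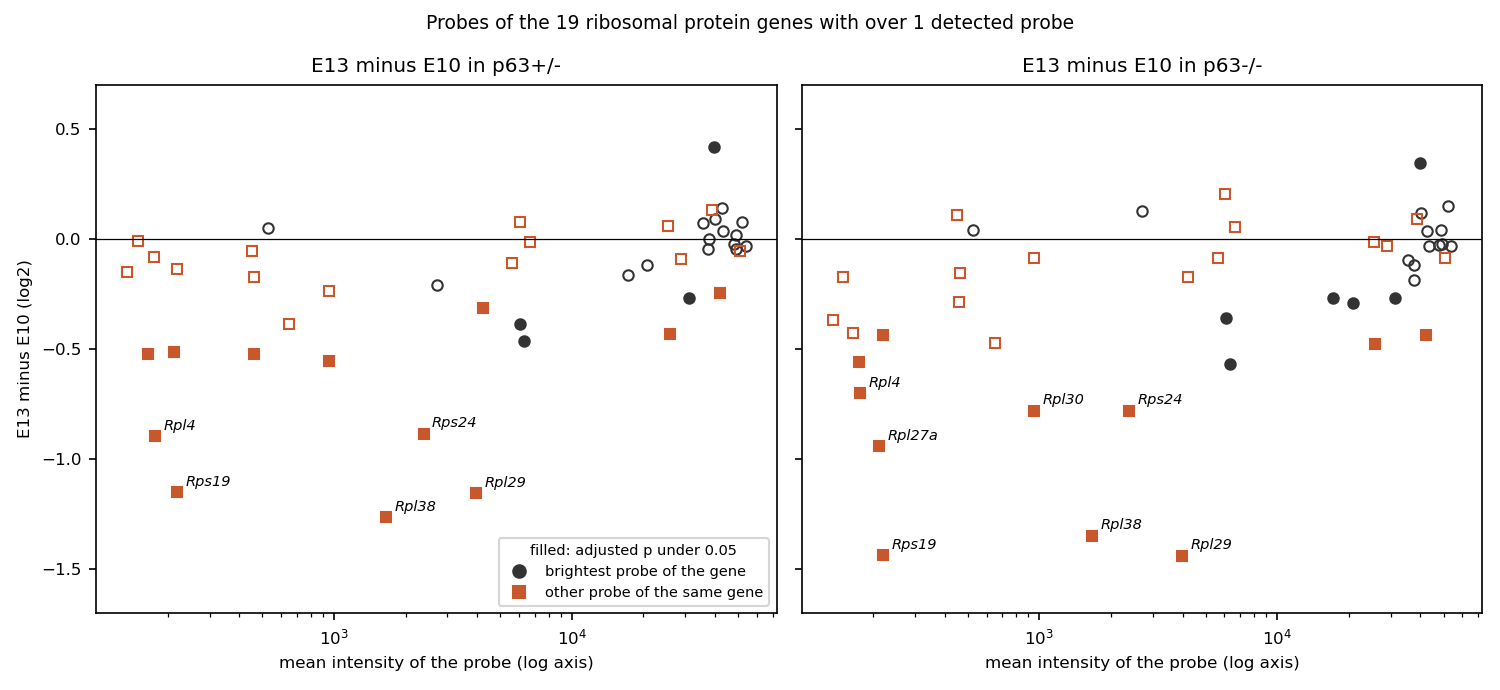
E13 minus E10 difference (y axis, log2) of each detected probe of the 19 genes with over 1, against the probe's mean intensity (x axis, log scale), p63+/- on the left and p63-/- on the right. Black circles are each gene's brightest probe and orange squares its other probes, filled where the adjusted p was under 0.05; the circles gather near 0 and the squares reach to -1.44.

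The size of the shared change with stage differed between scalings. The median intensity of the 55 genes, before normalization, was 35877 to 41654 on the E10 arrays and 28384 to 32241 on the E13 arrays. With array-median scaling in place of quantile normalization, the medians of the 55 differences were -0.42 in p63+/- and -0.49 in p63-/-, against -0.00 and -0.03 with quantile normalization and 0.020 and -0.0093 in the authors' values. The 138 other bright genes had medians of -0.53 and -0.51 on that scale, and all genes -0.11 and -0.12. In p63+/- embryos Rps27l, Rpl30, Rpl4 and Rpl13a passed as lower under quantile normalization, under array-median scaling and in the authors' values.

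Most genes of ribosome biogenesis fell with stage. Of 62 ribosome biogenesis genes tested, 50 were lower and 1 (Taf1a, a subunit of the RNA polymerase I factor SL1) higher at E13 than at E10 in each genotype, with medians of -0.58 and -0.59. Of all genes 28% were lower and 25.4% higher in p63+/-, and 28.5% and 27.5% in p63-/-, with medians of -0.045 and -0.039. Gnl3, the nucleolar GTPase nucleostemin, differed by -1.26 (SE 0.203) in p63+/-, Nhp2, of the box H/ACA particles that guide pseudouridylation, by -1.23 (SE 0.120) and Mrto4, a 60S assembly factor, by -1.09 (SE 0.135). Of 74 mitochondrial ribosomal protein genes, 55 were lower and 1 (Mrps17) higher in p63+/- (against those same shares of all genes), with a median of -0.39, led by Mrpl34 (-0.95), Mrpl18 (-0.90) and Mrpl44 (-0.89). The direction of each list's median was the same under every scaling tried. The Taf1a call ended in p63+/- without E13 p63+/- replicate 1 (adjusted p 0.0947), and in p63-/- with array-median scaling, array weights or fits to the arrays compared alone, and without E10 p63-/- replicate 2 or 3 or E13 p63-/- replicate 1 (highest adjusted p 0.166). Mrps17 was at -0.11 in p63+/- with array-median scaling. Taf1a and Mrps17 were named after their values were seen.

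Of 33 translation factors and other genes of the TOP class, 11 were lower and 3 higher in p63+/- (33.3% and 9.09%, median -0.21), near the 28% of all genes that were lower. With array-median scaling 25 were lower and 1 higher (median -0.58), where 33.7% of all genes were lower and 22.2% higher. Examples on the quantile-normalized scale were Eif3b at -0.89, Eif5a at -0.89 and Vim, whose message is also of the TOP class, at 2.14. Of 19 regulators of ribosome production and its p53 checkpoint, 9 were lower and 3 higher (63.2% in all, against 53.4% of all genes), among them Larp1 (-0.81) and Larp4 (-0.78), RNA-binding proteins of TOP and other messages, and Cdkn1a (0.79), the p53 target that arrests the cell cycle. The Cdkn1a call ended without E13 p63+/- replicate 1 (adjusted p 0.114). Between genotypes 0 of the biogenesis, mitochondrial and translation factor genes passed on the average over stages, where 2.36% of all genes did. Of the 19 regulators 1 passed (5.26%). Mycl, a Myc family factor, was lower in p63-/- by 0.24 on the log2 scale (SE 0.056, limma adjusted p 0.0232). That call ended without E10 p63+/- replicate 1 (adjusted p 0.0507).

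Markers of several cell types moved over the same days, when 28% of all genes were lower and 25.4% higher in p63+/-. In p63-/- these shares were 28.5% and 27.5%. All 13 proliferation genes tested were lower at E13 than at E10 in p63+/- and 12 in p63-/- (medians -0.91 and -0.92). The mean of 8 skeletal muscle markers rose from 5.85 to 5.96 at E10 to 11.81 to 12.62 at E13 across the p63+/- arrays, and all 8 passed. The mean of 9 erythroid markers went from 11.94 to 12.45 down to 10.85 to 10.87, with 6 of 9 lower. In p63+/- endothelial markers were higher for 6 of 6 and macrophage markers for 6 of 7, while 5 of 10 mandibular mesenchyme markers were lower, and of 7 epithelial markers 5 were lower and 1 higher. Of 8 neuron markers 2 were higher, near the share of all genes. Yolk sac endoderm markers were lower for 10 of 10 in p63-/- and 0 of 10 in p63+/-; the E10 p63-/- group includes the array that stood apart. Without E10 p63-/- replicate 3, 20 of the 55 ribosomal protein genes passed for E13 minus E10 in p63-/- rather than 17, and 57.2% of all genes rather than 56%. The part of these markers in the stage differences was not tested.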

How the data were processed

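The prominences of 24 embryos were hybridised to Illumina bead arrays, 1 each. The authors deposited, per the file headers, a linear intensity with its detection p-value per probe and array; the authors' processed table is on a log2 scale. The submitters' processing notes name BeadStudio, lumi and RMA but give them no role. Probe genes came from the platform annotation (34885 probes with 1 gene, 18 with several, 10378 with none), names and starts from RefSeq, GRCm38.p6. In limma 3.58.1 under R 4.3.3, neqc (offset 16) corrected the background, normalized by quantiles and took log2. A mean for each of 8 groups was fitted by lmFit and eBayes (16 residual degrees of freedom), with Benjamini-Hochberg adjustment over 12678 genes and a threshold of 0.05. The fit was tested on simulated data. A gene detected on no array of a group is given as a bound: the brighter group's mean against, per array, the higher of the lowest signal detected there and the probe's own. Members and gene lists were chosen with earlier results of these data known. By rule, the text names up to 6 lowest and 6 highest members past the threshold in a comparison (the 2 smallest p where none passed), paralogs, members with set roles, the 5 widest ranges, members whose probes disagree, and up to 3 genes of each other list; it gives a selection of these. Rps12, Rpl41, Rps29, Rps9, Rps15, Rps16, Rps13, Rpl29 and Rps15a were named after their values were seen. Alternatives were another background correction, scaling, offset, filter, probe rule, array weights, fewer arrays in the fit, the authors' values, the replicate number as a block and each array left out.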

Additional observations from a re-analysis of the deposited data

How the results depend on the processing

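For the genotype differences at each stage, their average and the interaction, 0 ribosomal protein genes passed under every alternative run. The counts with stage moved. Shares of all genes are in parentheses. With array-median scaling in place of quantile normalization, 48 passed for E13 minus E10 in p63+/- (55.9%), 47 in p63-/- (58.2%), 49 for E11 minus E10 (43.8%) and 12 for E13 minus E12 (45.6%). The authors' processed values gave 25 (52.8%), 30 (55.3%), 14 for E12 minus E11 (34.1%) and 22 for E13 minus E12 (39.3%). Quantile normalization without background correction gave 14 for E12 minus E11 (35.4%), detection on all 24 arrays 2 for E13 minus E12 (43.1%), and the mean of all detected probes 14 for E13 minus E10 in p63+/- (53.2%). Array weights gave 21 there (66.2%) and 12 for E13 minus E12 (50.4%), and fits to the arrays compared alone 5 for E13 minus E10 in p63-/- (40.5%) and 2 for E11 minus E10 (11.7%). Leaving out 1 array at a time gave 5 to 12 for E13 minus E10 in p63+/- (5 without E13 p63+/- replicate 1), 10 to 20 in p63-/- (10 without E13 p63-/- replicate 1, 11 without E10 p63-/- replicate 1), 1 to 6, 6 to 11 and 4 to 6 for the 3 steps.

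Signs turned for single genes. With array-median scaling, E13 minus E10 in p63+/- was -0.0895 for Rpl22, -0.29 for Rplp1, -0.43 for Rpl24, -0.34 for Rps19, -0.38 for Rps7, -0.28 for Rpl27a, -0.24 for Rps2 -0.31 for Rps24 and -0.11 for Mrps17; in p63-/- it was -0.15 for Rpl23, -0.31 for Rps14, -0.22 for Rplp1, -0.39 for Rps19 and -0.41 for Rpl27a; and E11 minus E10 was -0.0945 for Rpl23. The authors' values put Rpl38 at 0.12 and 0.13. The mean of all detected probes put Rps19 at -0.53 and -0.66, Rps24 at -0.37 in p63+/-, and Rpl23 at -0.0740 and Rpl27a at -0.26 in p63-/-. The causes were not tested.

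The labels do not tie replicate numbers to litters. Every same-numbered pair had deviations correlated over 0.1 at E12 (0.285 to 0.429) and at E13 (0.257 to 0.629), so the numbers pair the arrays at those stages by that measure. At E10 (0.0403 to 0.188) and E11 (0.0752 to 0.199) only some pairs were over 0.1. Of the 12 pairs 9 were over it, and in 11 the p63-/- array correlated best with its own number. With the pair of stage and number as a replicate block, 0 ribosomal protein genes passed for every genotype comparison, and 1.66%, 0.765%, 0.386% and 0.363% of all genes at E10, E11, E12 and E13 and 3.04% on the average. With the number as a replicate block, 10, 17, 6, 9 and 4 ribosomal protein genes passed for the 5 stage comparisons (53.9%, 56.4%, 17%, 35.5% and 40.2% of all genes). Neither block moved a count of these genes by over 1.5 times.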
